A study of Mustela putorius furo and Mus musculus with 4 samples.

Results

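The EGF receptor family and its ligands were followed through the cells of the embryonic cortex of mouse and ferret. The 8 genes were chosen by symbol, with earlier results of these data known. They are 4 receptors (Egfr, Erbb2, Erbb3 and Erbb4) and 4 ligands (Nrg1, Nrg3, Hbegf and Tgfa). All 8 were found among the 17170 genes of the mouse table and, in upper case, among the 22008 genes of the ferret table. The receptors are tyrosine kinases of the cell surface that work in pairs. EGFR binds ligands such as TGF-alpha and HB-EGF, ERBB3 and ERBB4 bind neuregulins, ERBB2 has no known ligand and serves as a partner of the others, and ERBB3 has little kinase activity of its own. In the developing brain EGFR is known from late progenitors that turn to making glia and olfactory bulb interneurons, ERBB4 from cortical interneurons, and neuregulins from their migration and from glial development.

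The mouse libraries came from E18 cortex of the CD1 strain. In the Smo-cKO embryo hGFAP-Cre, which is active in cortical radial glial (RG) cells, recombined floxed alleles of Smo, the transducer of Sonic hedgehog signals. The control was a littermate that the labels call wild type and the study's methods describe as carrying the floxed alleles without Cre. Cells facing the lateral ventricle were dyed with CellTrace Yellow at E17 and dyed cells were sorted before capture, so the gate sets which classes can be seen. Microglia-like cells (97 in control and 176 in the Smo-cKO library) and vascular-like cells (56 and 33) were also present. The ferret cells came from the unsorted cortex of 1 wild-type embryo at E39. There was 1 library per genotype, so no difference between genotypes could be tested over animals, and a difference between genotypes cannot be told apart from one between embryos or preparations.

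After the study's limits on genes and mitochondrial transcripts, 10498 control cells with 51657121 transcripts counted by unique molecular identifier (UMI) and 7209 Smo-cKO cells with 42057782 UMIs remained, with medians of 4033.5 and 4836 UMIs per cell. The ferret cells fell into 2 barcode sets, of 10185 and 13052 cells, which could not be tied to the labelled samples and which did not look alike: 109 cells of set 1 and 1052 of set 2 were interneuron-like. They are given side by side. Levels are UMIs of a gene per 1000000 UMIs of the class (CPM) with an exact Poisson 95% interval, ratios carry an exact conditional binomial 95% interval, and shares an exact Clopper-Pearson 95% interval. All intervals cover counting error only. The median log2 ratio of all genes lay between -0.06 and 0.07 in the mouse classes, and Smo itself was at 14.9 CPM (196 UMIs) in control RG-like cells and 0.316 CPM (4 UMIs) in those of the Smo-cKO library.

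Cells were put into classes by how many markers of a class had at least 1 UMI, with no member of the family among the markers. RG-like cells needed 8 of 14 markers (Sox2, Pax6, Hes1, Hes5, Slc1a3 and others), and 2389 control and 1599 Smo-cKO cells met this, 22.8% and 22.2% of the libraries. Glial IPC-like cells needed 2 of 9 markers (Olig1, Olig2, Pdgfra and others). They numbered 552 in control, 5.26% (4.84 to 5.70), and 159 in the Smo-cKO library, 2.21% (1.88 to 2.57). Neuronal IPC-like cells (Eomes, Neurog2, Insm1 and others) numbered 1977 and 1133, pyramidal neuron-like (PyN-like) cells 2830 and 2521, and interneuron-like cells 187 and 272. In the glial IPC-like class 322 control and 81 Smo-cKO cells lay at the threshold and 486 and 372 unassigned cells lay 1 marker below it, and its cells carried a median of 8 and 10 RG markers. The class was cut from a marker count and is used as a range of cells, and whether it is apart from RG-like cells was not tested.

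Egfr, the receptor for TGF-alpha and HB-EGF (chr11:16752203-16918158, plus strand, GRCm38), had its highest level in glial IPC-like cells of every library. In control it stood at 129 CPM (118 to 140, 553 UMIs) in glial IPC-like cells and at 14.9 CPM (12.9 to 17.1, 196 UMIs) in RG-like cells. The next level, 22.1 CPM (13.7 to 33.8, 21 UMIs) in interneuron-like cells, overlapped that of RG-like cells in its interval. Neuronal IPC-like cells were lower at 9.34 CPM (7.56 to 11.4), PyN-like cells were at 1.42 CPM, and no microglia-like cell of 97 held an Egfr UMI, which allows a share of up to 3.09%. Although Egfr was not a marker, it ranked 3 among the genes by which the mouse glial IPC-like class stood out from all other cells, after Olig1 and Olig2.

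In the Smo-cKO library the Egfr level was lower in each of the progenitor classes. It was 3.16 CPM (2.26 to 4.31, 40 UMIs) in RG-like cells, a ratio to control of 0.212 (0.147 to 0.2998). In glial IPC-like cells it was 56.5 CPM (46.3 to 68.3, 106 UMIs), a ratio of 0.438 (0.353 to 0.540), which moved to 0.616 when cells that also reached the threshold of a second class were left out. Neuronal IPC-like cells held 2.57 CPM (17 UMIs) against 9.34 CPM (96 UMIs), a ratio of 0.275 (0.154 to 0.464). The intervals of all 3 ratios lay below 1. Interneuron-like cells had 21 Egfr UMIs in control and 2 in the Smo-cKO library. Interneuron-like cells were thus at place 2 in control and at place 4 in the Smo-cKO library. RG-like cells stood above neuronal IPC-like cells in both, but in the Smo-cKO library, on 40 and 17 UMIs, their intervals overlapped.

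The share of cells with an Egfr UMI gave the same direction. It came to 6.28% in control RG-like cells and to 1.63% in Smo-cKO ones, a difference of -4.65 percentage points (Newcombe 95% interval -5.82 to -3.48), although the Smo-cKO cells were deeper, with a median of 7362 against 4897 UMIs. With every cell thinned to 2900 UMIs (2200 control and 1536 Smo-cKO cells were deep enough) the shares were 3.52% and 0.732%. Of glial IPC-like cells 53.3% and 39.0% of cells held an Egfr UMI, and 29.2% and 14.3% after thinning. As a reference for free RNA, 1 of 176 Smo-cKO microglia-like cells had one, 0.568%, at median depths of 8258 and 7571.5 UMIs in the control and Smo-cKO microglia-like cells.

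**Figure D1:**
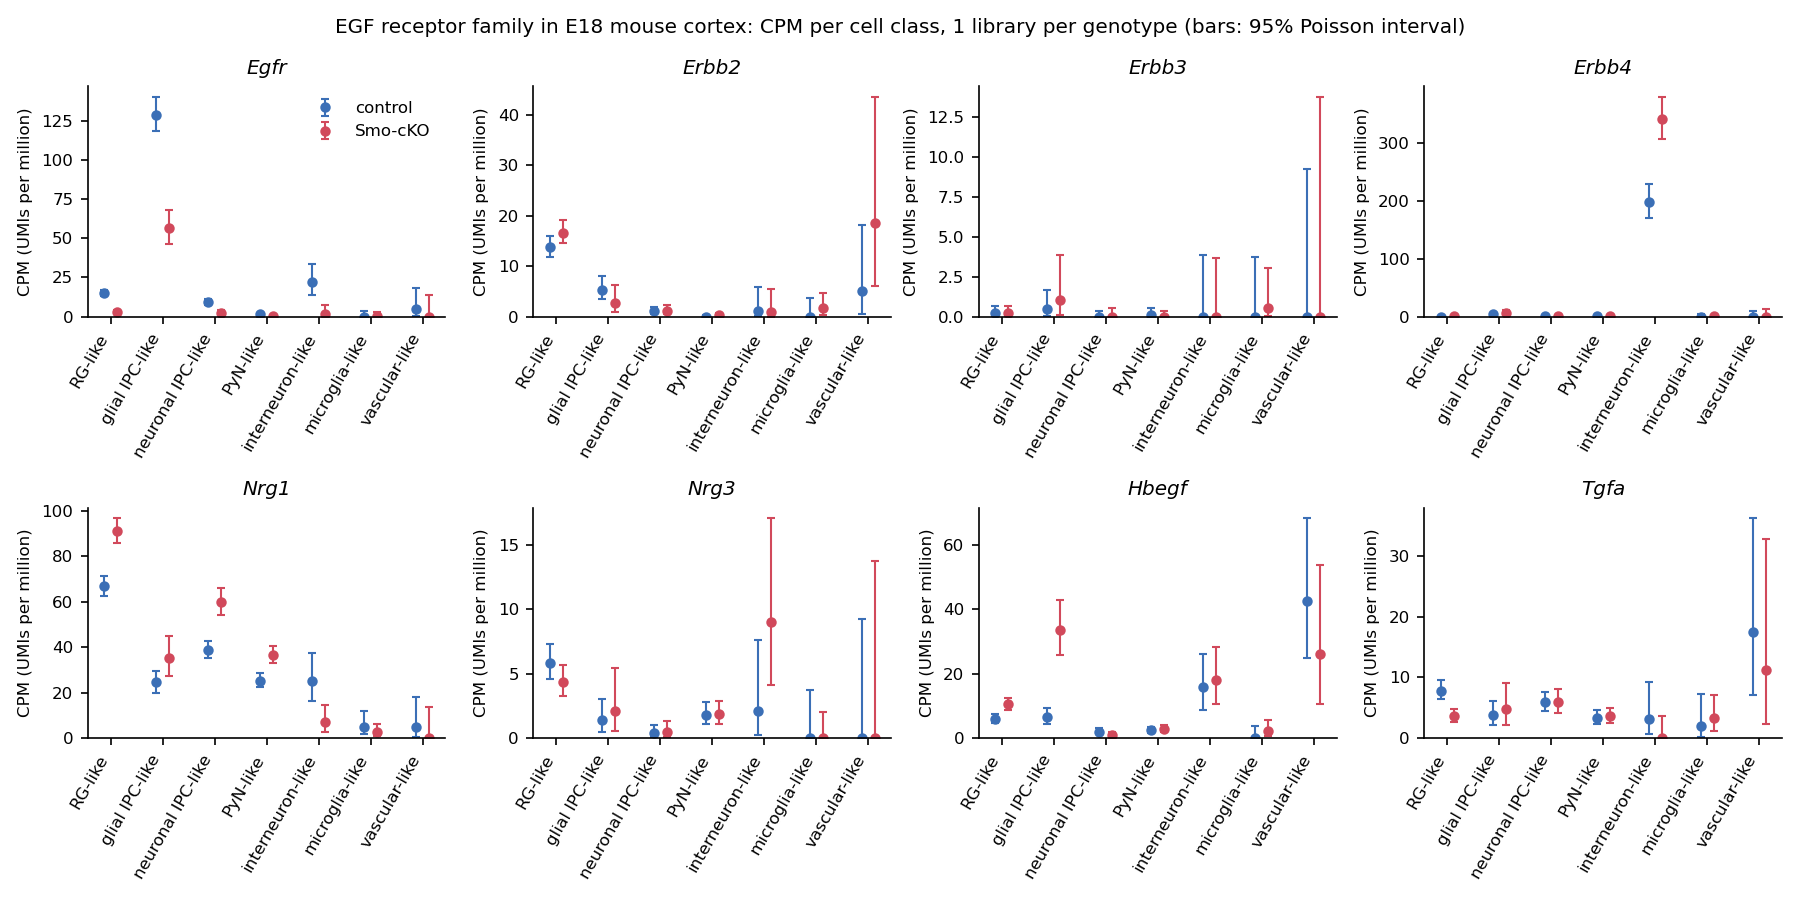
Level of each member in CPM (vertical axis, linear, from 0 and scaled per panel) in 7 cell classes of the control library (blue) and the Smo-cKO library (red); points are the pooled level of a class and bars exact Poisson 95% intervals for 1 library each. Egfr is highest in glial IPC-like cells (129 and 56.5 CPM), Erbb4 in interneuron-like cells (198 and 341 CPM) and Nrg1 in RG-like cells (66.7 and 91.1 CPM).

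Egfr followed the glial markers within the RG-like range. Among control cells at or over the RG threshold, Egfr stood at 9.49 CPM (7.83 to 11.4) in the 2126 cells with no glial IPC marker, 37.2 CPM (32.0 to 42.9) in 714 cells with 1, 105 CPM (90.0 to 122) in 202 cells with 2 and 148 CPM (128 to 170) in 132 cells with 3 or more. The intervals of these 4 steps did not overlap. In the Smo-cKO library the same steps gave 1.98, 9.73, 51.3 and 52.3 CPM over 1357, 653, 66 and 64 cells, below control at each step, with no overlap of the intervals between genotypes. A cell with more UMIs can show more markers, and the Smo-cKO cells were the deeper ones.

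Egfr did not follow the cell cycle in this way: control RG-like cells with at least 3 of 10 cycling markers held 15.4 CPM and the others 14.5 CPM, and control glial IPC-like cells held 127 and 133 CPM. The share of cycling cells was 39.4% in control and 29.1% in Smo-cKO RG-like cells, and within the cycling cells and within the others the Egfr level was again lower in the Smo-cKO library, at 3.55 and 2.95 CPM.

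**Figure D2:**
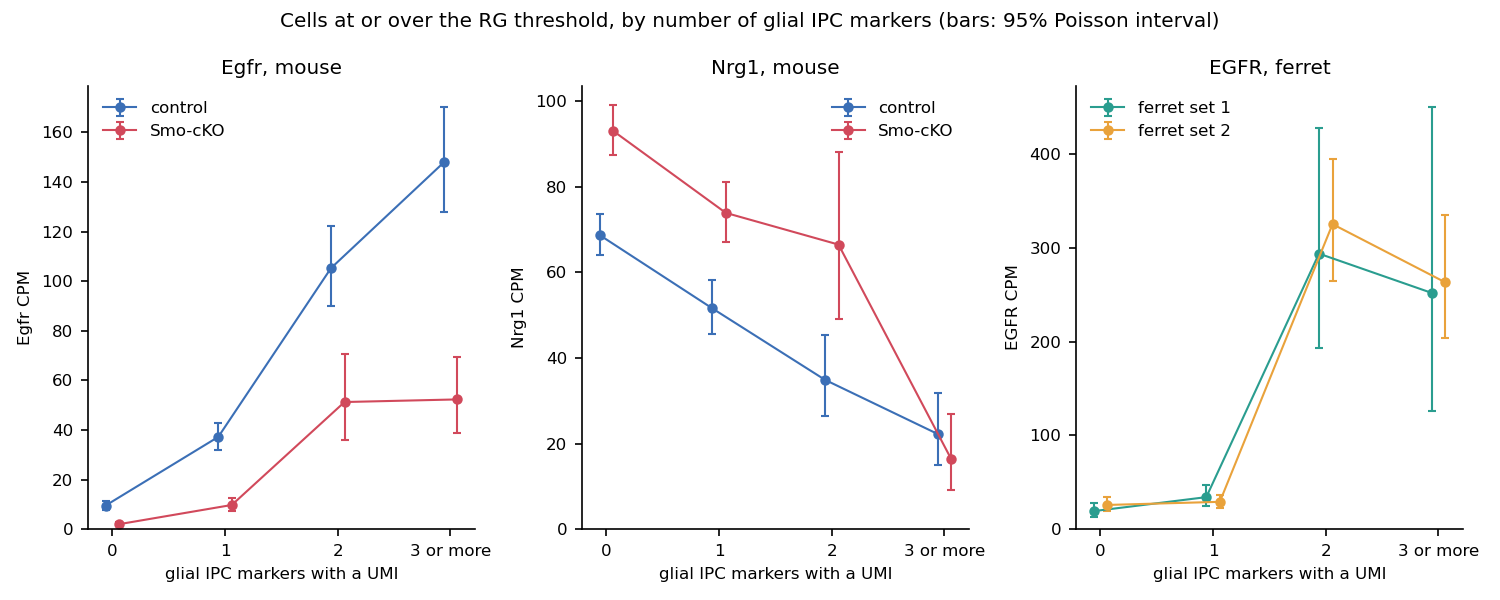
Levels in CPM (vertical axis, linear, from 0) of Egfr and Nrg1 in mouse and of EGFR in ferret, in cells at or over the RG threshold, by the number of glial IPC markers with a UMI (horizontal axis); bars are exact Poisson 95% intervals. Egfr goes up from 9.49 to 148 CPM in control and from 1.98 to 52.3 CPM in the Smo-cKO library, while Nrg1 goes down from 68.7 to 22.2 and from 93.1 to 16.3 CPM.

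Glial IPC-like cells held a larger share of the Egfr transcripts than any other class though they were few. They carried 51.9% of the 1066 Egfr UMIs of control and 48.2% of the 220 of the Smo-cKO library, RG-like cells 18.4% and 18.2%, and unassigned cells 16.98% and 23.6%. Per 10000 cells there were 1015 Egfr UMIs in control and 305 in the Smo-cKO library. The class sizes of the Smo-cKO library with the control Egfr UMIs per cell of each class would give 681. The control class sizes with the Smo-cKO UMIs per cell would give 530. UMIs per cell are not corrected for depth, and Smo-cKO glial IPC-like cells were the deeper (medians of 10932 against 6865 UMIs). The lower level therefore weighs less in these figures than it would in CPM. Both the smaller glial IPC-like share and the lower level within classes entered the difference over all cells, where the ratio was 0.253 (0.218 to 0.293).

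**Figure D3:**
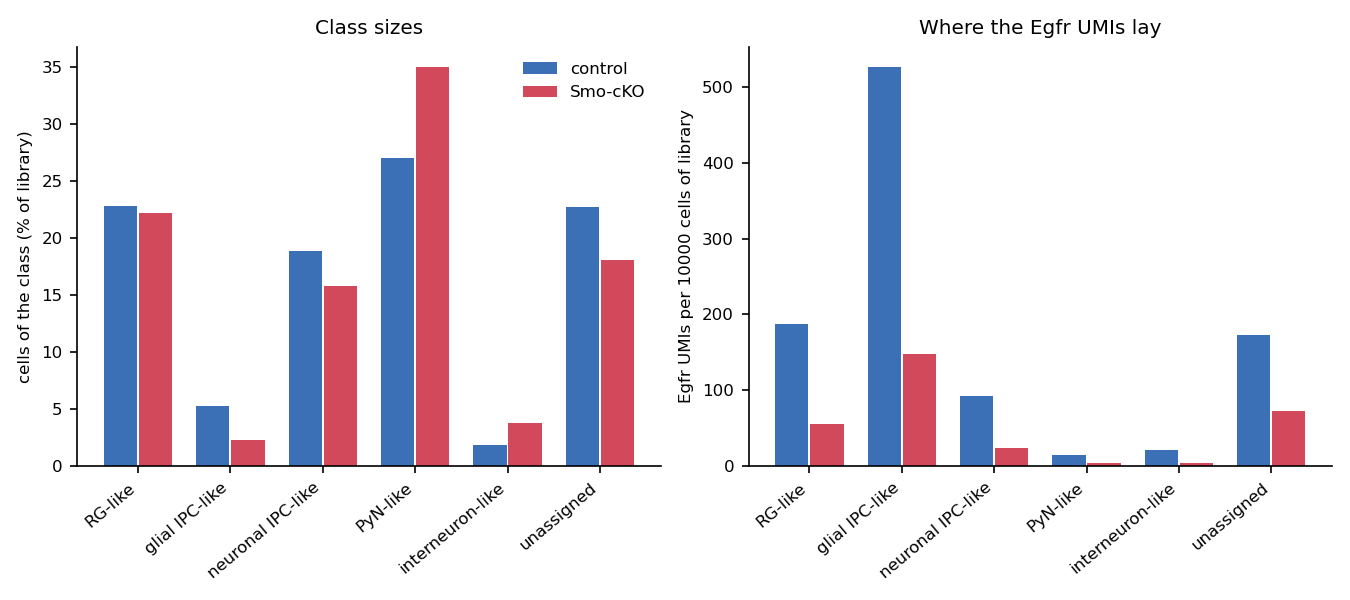
Left, cells of each class as a percentage of the library; right, Egfr UMIs found in that class per 10000 cells of the library (bars from 0; control blue, Smo-cKO red; 1 library each, no error bars). Glial IPC-like cells make up 5.26% and 2.21% of cells and hold 527 and 147 Egfr UMIs per 10000 cells.

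Erbb2, the partner receptor (chr11:98412470-98437716, plus strand), was mostly a transcript of RG-like cells. It stood at 13.7 CPM (11.8 to 15.9, 181 UMIs) in control RG-like cells and 16.7 CPM (14.5 to 19.1, 211 UMIs) in those of the Smo-cKO library, apart from glial IPC-like cells at 5.36 and 2.67 CPM. The ratio in RG-like cells, 1.21, had an interval of 0.990 to 1.49 that held 1. A UMI was found in 7.16% and 11.8% of RG-like cells, but in 3.95% and 4.53% once cells were thinned, so most of that gap was absent at equal depth. PyN-like cells had 0 and 3 Erbb2 UMIs.

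UMIs of more than 1 receptor in the same cell were counted as well. In control, 317 of 2389 RG-like cells had a UMI of at least 1 receptor and 10 had UMIs of at least 2. The pair Egfr and Erbb2 was seen in 8 RG-like and 11 glial IPC-like cells of control and in 0 and 3 of the Smo-cKO library. At these counts a missing UMI does not show a missing transcript, so no separation of the receptors between cells is read from them.

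Erbb3, the neuregulin receptor of weak kinase activity (chr10:128567523-128589652, minus strand), was barely detected. There were 7 UMIs in control and 6 in the Smo-cKO library, of which 3 and 3 lay in RG-like and 2 and 2 in glial IPC-like cells. No order of classes could be read from them.

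Erbb4, the neuregulin receptor known from interneurons (chr1:68032186-69108059, minus strand), was concentrated in interneuron-like cells. Its level there was 198 CPM (171 to 228, 188 UMIs) in control and 341 CPM (306 to 380, 342 UMIs) in the Smo-cKO library, and the next class, glial IPC-like cells, was at 4.20 and 6.93 CPM. RG-like cells had 3 and 5 UMIs, in 0.126% and 0.313% of cells, no more than the 0 of 97 and 1 of 176 microglia-like cells allow for free RNA. Erbb4 ranked 4 among the genes that set interneuron-like cells apart, after Dlx6os1, Dlx1 and Dlx2.

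The Erbb4 ratio within interneuron-like cells was 1.72 (1.44 to 2.07). An Erbb4 UMI was found in 53.5% and 62.9% of these cells, and in 37.5% and 57.5% after thinning, the Smo-cKO interneuron-like cells being the shallower (3142 against 4376 UMIs). The make-up of the class also differed: 18.2% of its control cells and 3.31% of its Smo-cKO cells were cycling. In control the cycling interneuron-like cells held 65.5 CPM of Erbb4 and 61.9 CPM of Egfr, and the others 252 CPM of Erbb4 and 5.93 CPM of Egfr. Without cells of 2 or more cycling markers the Erbb4 ratio was 1.48 (1.23 to 1.79). Of the control cells 1.78% fell in this class, and of the Smo-cKO cells 3.77%. The Erbb4 ratio over all cells was larger, 1.997 (1.70 to 2.34).

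Nrg1, a neuregulin that signals through ERBB3 and ERBB4 (chr8:31814551-32884029, minus strand), was found in all the larger classes, with 2121 UMIs in control and 2420 in the Smo-cKO library. RG-like cells had its highest level, 66.7 CPM (62.3 to 71.2, 878 UMIs) in control and 91.1 CPM (85.9 to 96.5, 1152 UMIs) in the Smo-cKO library. Neuronal IPC-like cells came next at 38.8 and 59.8 CPM, and PyN-like cells were at 25.2 and 36.5 CPM. In control the interneuron-like, PyN-like and glial IPC-like cells, between 24.5 and 25.3 CPM, could not be put in order.

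The Nrg1 level was higher in the Smo-cKO library in each of the larger classes, by ratios that were close to each other. The ratio was 1.37 (1.25 to 1.49) in RG-like, 1.54 (1.34 to 1.78) in neuronal IPC-like and 1.45 (1.24 to 1.70) in PyN-like cells. Among glial IPC-like cells it was 1.44 (1.04 to 1.97), but 0.927 when 1 more marker was needed for a class. Of RG-like cells, 28.3% in control and 45.2% in the Smo-cKO library had an Nrg1 UMI, and 16.98% and 22.1% after thinning.

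Within the RG-like range Nrg1 went the other way from Egfr. From 0 to 3 or more glial markers it went from 68.7 CPM to 22.2 CPM in control and from 93.1 CPM to 16.3 CPM in the Smo-cKO library. Interneuron-like cells differed from the other classes: Nrg1 was at 25.3 CPM (24 UMIs) in control and 6.99 CPM (7 UMIs) in the Smo-cKO library, a ratio of 0.276 (0.101 to 0.661). The Smo-cKO share there was 2.21% of cells, beside 2.84% of the deeper microglia-like cells, and 1.42% against 0.678% after thinning to 2900 UMIs. The levels, 6.99 CPM (2.81 to 14.4) and 2.72 CPM (0.885 to 6.36), overlapped in their intervals. The 7 UMIs are therefore not told apart from background. Once cells with markers of a second class were left out, 1 and 2 UMIs remained and the ratio was 0.812.

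Nrg3, a neuregulin that binds ERBB4 (chr14:38368952-39473088, minus strand), was found at 121 and 105 UMIs in the mouse libraries. It was at 5.85 CPM (4.61 to 7.31, 77 UMIs) in control and 4.35 CPM (3.28 to 5.66, 55 UMIs) in Smo-cKO RG-like cells, a ratio of 0.744 whose interval, 0.516 to 1.06, held 1. PyN-like cells were at 1.80 and 1.85 CPM. Interneuron-like cells had 2 and 9 UMIs.

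Hbegf, which encodes the EGFR ligand HB-EGF, had its highest control level in vascular-like cells, at 42.6 CPM (24.8 to 68.2, 17 UMIs in 56 cells), an interval that overlapped that of interneuron-like cells at 15.8 CPM (8.84 to 26.1). In the Smo-cKO library vascular-like cells were at 26.1 CPM (7 UMIs in 33 cells). In RG-like cells it was at 5.92 CPM (4.68 to 7.39, 78 UMIs) in control and 10.52 CPM (8.81 to 12.5, 133 UMIs) in the Smo-cKO library, a ratio of 1.78 (1.33 to 2.38). Glial IPC-like cells held 6.53 CPM (28 UMIs in 23 cells) and 33.6 CPM (63 UMIs in 26 cells), a ratio of 5.14 (3.25 to 8.34). Glial IPC-like cells were thus first among the Smo-cKO classes of at least 50 cells, with an interval that overlapped that of the next, interneuron-like cells at 18.0 CPM.

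The Hbegf ratios depended on which cells were counted, and the one in glial IPC-like cells moved most among the member ratios resting on at least 50 UMIs. Hbegf is an immediate early gene in many cells, and leaving out cells with 10 or more UMIs of 9 other immediate early genes gave 1.12 (0.761 to 1.63, 58 UMIs in each library) in RG-like cells and 4.71 in glial IPC-like cells. The summed level of those 9 genes was 987 and 788 CPM in RG-like and 685 and 657 CPM in glial IPC-like cells, so it was not higher in the Smo-cKO library. In glial IPC-like cells the ratio was 3.05 without the 5% of cells with most UMIs and 1.70 (0.453 to 6.34, 6 UMIs in each library) without cells of 2 or more cycling markers. Cycling Smo-cKO glial IPC-like cells held 43.5 CPM and the others 11.9 CPM, against 6.55 and 6.48 CPM in control.

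Tgfa, which encodes the EGFR ligand TGF-alpha (chr6:86195223-86275719, plus strand), was lower in Smo-cKO RG-like cells. It stood at 7.82 CPM (6.38 to 9.49, 103 UMIs) in control and 3.64 CPM (2.66 to 4.85, 46 UMIs) in the Smo-cKO library, a ratio of 0.465 (0.321 to 0.664). RG-like cells with cycling markers held less of it than the others, 4.90 against 10.4 CPM in control and 2.22 against 4.42 CPM in the Smo-cKO library, so the lower level was present in both parts. A UMI was found in 3.98% and 2.56% of RG-like cells (2.38% and 1.02% after thinning), against 2.06% and 2.27% of microglia-like cells (0.244% and 0.676% after thinning). Microglia-like levels were 2.02 CPM (0.245 to 7.29, 2 UMIs) in control and 3.27 CPM (1.20 to 7.12, 6 UMIs) in the Smo-cKO library. Their intervals overlapped those of RG-like cells in both libraries, so by level the RG-like Tgfa UMIs are not told apart from background.

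Outside RG-like cells no direction could be read for Tgfa. Neuronal IPC-like cells were at 5.93 and 5.89 CPM, a ratio of 0.993 (0.647 to 1.51). It was 0.668 (0.365 to 1.18) when the class rule was applied to cells thinned to 2900 UMIs and 1.04 without cells of 10 or more immediate early gene UMIs. PyN-like cells were at 3.32 and 3.599 CPM. The highest value in control, 17.5 CPM in vascular-like cells, rested on 7 UMIs, and in each library the intervals of neighbouring classes overlapped throughout.

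**Figure D4:**
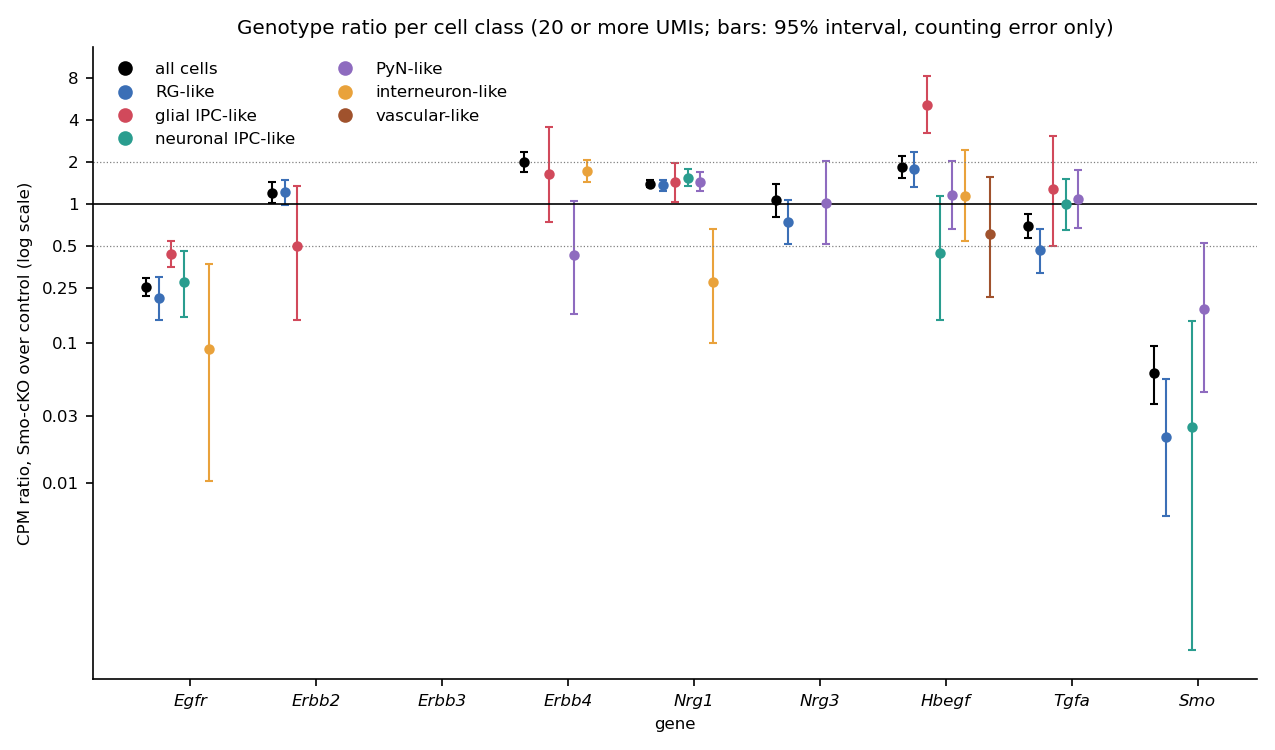
Ratio of CPM, Smo-cKO over control (vertical axis, log scale), for each member and for Smo in all cells and in each class with at least 20 UMIs of the gene over both libraries and at least 1 in each; bars are exact conditional binomial 95% intervals and dotted lines mark 2-fold. Egfr lies below 1 in all classes shown, from 0.090 to 0.438, Nrg1 lies between 1.37 and 1.54 outside interneuron-like cells, and Hbegf reaches 5.14 in glial IPC-like cells; Smo in glial IPC-like cells, with 42 and 0 UMIs, is not drawn.

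The members were set against all genes with at least 50 UMIs over both libraries, counting those at least 2-fold apart. In RG-like cells 2 of 6 such members, Egfr and Tgfa, were at least 2-fold lower in the Smo-cKO library, and 1.57% of 11482 genes were. None was at least 2-fold higher, as 2.60% of genes were. In glial IPC-like cells Egfr was lower and Hbegf higher among 3 members, where 3.17% of genes were past 2-fold either way. In neuronal IPC-like cells 1 of 3 members, Egfr, was past it (3.88% of genes), in PyN-like cells 0 of 3 (2.34%), and in interneuron-like cells 0 of 1 (4.31%). Over all cells 1 of 7, Egfr, was past 2-fold, with 6.58% of genes so, and Erbb4 was just short of it at 1.997.

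Other genes of the pathway did not pass 2-fold in RG-like cells. The list of other ligands had 1 member with enough UMIs, Nrg2, with 44 UMIs in control and 22 in the Smo-cKO library. Of 5 genes that cut ligands and receptors free or traffic their sheddases, such as Adam10 and Adam17, 10 adaptors and ubiquitin ligases, such as Grb2 and Cbl, and 6 feedback inhibitors, such as Errfi1 and Lrig1, 0 were at least 2-fold apart. Their median log2 ratios were 0.04, -0.06 and -0.05, beside -0.02 over all genes.

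In other classes 5 values of these lists were past 2-fold, named here after they were seen: 1 of 17 genes with enough UMIs in glial IPC-like cells, 3 of 20 in neuronal IPC-like cells, 1 of 19 in PyN-like cells and 0 of 9 in interneuron-like cells. Of all genes 3.17%, 3.88%, 2.34% and 4.31% were past it in these classes. Spry1, an inhibitor of receptor tyrosine kinase signalling, was at 13.5 and 32.5 CPM in glial IPC-like cells, a ratio of 2.40 (1.65 to 3.51). Dusp6, a phosphatase that acts on ERK, was at 2.63 and 9.22 CPM in neuronal IPC-like cells and at 4.93 and 11.4 CPM in PyN-like cells, ratios of 3.51 and 2.32. In neuronal IPC-like cells Rhbdf1, an inactive rhomboid protein, had a ratio of 4.04 on 15 and 39 UMIs, and Lrig1, an inhibitor of the EGF receptor, a ratio of 0.49 on 38 and 12 UMIs.

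Genes whose profile over classes was most like that of a member were found among 12274 genes that were not markers, by Pearson's r of log2(CPM + 10) over 12 profiles, 6 classes in each of 2 libraries. The profiles share libraries and depth, and r is given as a description. The most like Egfr were Suv39h2 (r = 0.947), Ttll4 (0.946) and Rtkn2 (0.946). Erbb2 was most like Fbxo2 (0.982), Gm9889 (0.982) and Klf15 (0.981), and Erbb4 was most like Gria4 (0.996), Npas1 (0.992) and Lgi1 (0.992). For the ligands the first were Crtc3 for Nrg1 (0.968), Ccdc6 for Nrg3 (0.939), Nap1l5 for Hbegf (0.906) and Josd2 for Tgfa (0.896), each followed by a pair of genes at 0.873 or above: Eci2 and Tead3, 2410004B18Rik and Gm2564, Fbn2 and Car3, and Adat2 and Mmp14.

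In the ferret cortex at E39 EGFR was again highest in glial IPC-like cells. Its level was 255 CPM (204 to 315, 86 UMIs in 90 cells) in set 1 and 250 CPM (218 to 285, 224 UMIs in 181 cells) in set 2, and it was 28.6 and 32.4 CPM in RG-like cells. PyN-like cells were at 0.826 and 0.551 CPM. Between the sets the ratio in glial IPC-like cells was 0.978 (0.759 to 1.27), and both sets put RG-like cells second. An EGFR UMI was found in 27.8% and 27.6% of glial IPC-like cells and in 6.54% and 7.43% of RG-like cells.

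As in mouse, the ferret EGFR level was tied to glial markers within the RG-like range, but with a step. It was 19.1 and 25.7 CPM with no glial marker, 34.1 and 29.1 CPM with 1, 294 and 325 CPM with 2 and 252 and 263 CPM with 3 or more. In set 1 the values with 2 and with 3 or more markers rested on 19 cells (27 UMIs, interval 194 to 427) and 10 cells (11 UMIs, 126 to 451). In set 2 they rested on 49 and 55 cells. In both ferret sets cycling glial IPC-like cells held more than the others, 422 against 181 CPM in set 1 and 364 against 158 CPM in set 2. The species differ in stage and in sorting, so no ratio between them was formed.

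ERBB4 had its highest level in interneuron-like cells, where it ranked 1 among the genes setting the class apart. It was at 7937 CPM (2459 UMIs) in set 1 and 11769 CPM (38795 UMIs) in set 2, and 102 of 109 and 1047 of 1052 interneuron-like cells held a UMI of it. In glial IPC-like cells it was at 246 and 330 CPM, in 36.7% and 52.5% of cells. Microglia-like cells, taken as a class that lacks the gene, held a UMI in 13.1% and 34.4% of cells at median depths of 2993.5 and 3715 UMIs, and levels of 265 CPM (207 to 333) and 205 CPM (154 to 267). The glial IPC-like level was not above this in set 1. The shares in RG-like cells (10.1% and 10.99%), neuronal IPC-like cells (10.0% and 8.15%) and PyN-like cells (8.87% and 8.73%) lay below those of microglia-like cells. Vascular-like cells were at 49.7 and 57.9 CPM, so microglia-like and vascular-like cells gave unlike references. RG-like cells, at 90.0 and 87.3 CPM, lay between them, and whether their UMIs are background could not be told.

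Over all cells ERBB4 was 4.32 times (4.21 to 4.44) as high in set 2 as in set 1, the member past 2-fold among 6 with at least 50 UMIs, where 5.02% of genes were past it and the median gene was higher by 0.24 on the log2 scale. The share of interneuron-like cells differed alongside, 1.07% in set 1 and 8.06% in set 2. Within interneuron-like cells the ratio of the sets was 1.48 (1.42 to 1.54), and 12.2% of genes were past 2-fold. In neuronal IPC-like cells, where the shares were below those of microglia-like cells, ERBB4 was lower in set 2, with a ratio of 0.404 (0.318 to 0.512, with 3.62% of genes past 2-fold).

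NRG3 was spread over the ferret classes, with 11519 UMIs in set 1 and 40378 in set 2. PyN-like cells held 458 CPM in set 1 and 860 CPM in set 2, interneuron-like cells 581 and 812 CPM, and RG-like cells 366 and 543 CPM. The first place went to interneuron-like cells in set 1 and to PyN-like cells in set 2. A UMI was found in 55.1% and 64.3% of PyN-like cells and in 283 of 566 and 382 of 646 RG-like cells, against 20.2% and 29.5% of microglia-like cells. Neuronal IPC-like cells, at 21.4% and 21.5%, were close to the microglia-like share in set 1 and below it in set 2. Of the 1052 interneuron-like cells of set 2, 571 held NRG3.

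The other neuregulin, NRG1, was highest in RG-like cells at 79.2 CPM (67.2 to 92.7) in set 1 and 126 CPM (114 to 140) in set 2, then in neuronal IPC-like cells at 63.7 and 84.2 CPM, the same first and second class as in mouse. In set 1 the neuronal IPC-like interval (52.8 to 76.2) overlapped those of RG-like and glial IPC-like cells, and in set 2 it was apart from both. ERBB2 was highest in RG-like cells in set 1 at 5.62 CPM (11 UMIs) and was at 8.87 CPM (26 UMIs) in set 2, beside 8.77 CPM (5 UMIs) in vascular-like cells. HBEGF was highest in vascular-like cells in both sets, at 39.4 CPM (23 UMIs) and 31.6 CPM (18 UMIs), and PyN-like cells were at 3.79 and 3.91 CPM.

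TGFA and ERBB3 were near the limit of detection in ferret. TGFA had 10 UMIs in set 1 and 27 in set 2, and none of the 566 and 646 RG-like cells held one, which allows a share of up to 0.530% and 0.464%. ERBB3 had 3 and 10 UMIs, 2 and 4 of them in glial IPC-like cells.

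**Figure D5:**
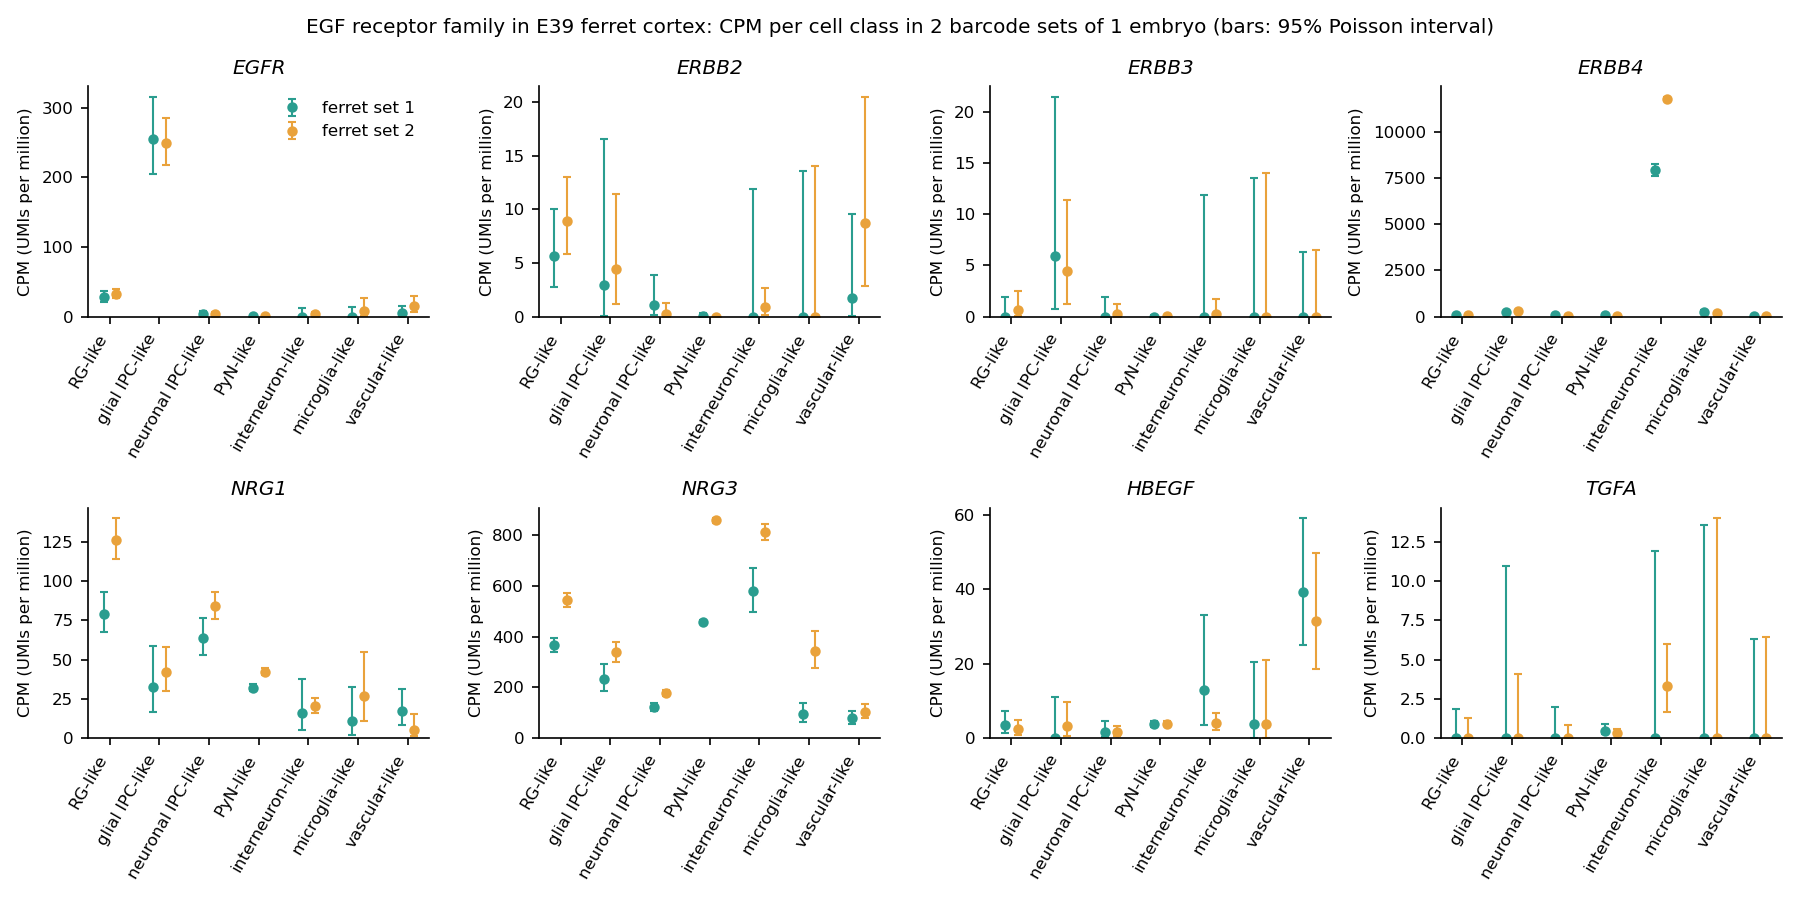
Level of each member in CPM (vertical axis, linear, from 0 and scaled per panel) in 7 classes of ferret E39 cortex, in barcode set 1 (green) and set 2 (orange) of 1 embryo; bars are exact Poisson 95% intervals. EGFR is highest in glial IPC-like cells (255 and 250 CPM), ERBB4 in interneuron-like cells (7937 and 11769 CPM), NRG1 in RG-like cells (79.2 and 126 CPM) and HBEGF in vascular-like cells (39.4 and 31.6 CPM).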

How the data were processed

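Cells were captured with the 10x Chromium platform. Reads went through Cell Ranger (the submitters' notes also name mm10, StringTie and Seurat 3), and the authors deposited raw UMI counts of genes in cells, with both mouse libraries in 1 table and the ferret cells in another. The ferret build and the treatment of intronic reads are not given in the sources used here. Mouse genotype was taken from the barcode suffix whose number of cells, 10524 or 7596, is the one given for control or Smo-cKO. No label in the table ties a suffix to a sample, and all directions in mouse rest on this assignment. The Smo counts go the way it implies, with 196 UMIs in control and 4 in Smo-cKO RG-like cells. The deposited barcodes equal the cell numbers stated after filtering, while the stated limits (750 to 5000 genes, under 10% mitochondrial UMIs) left 10498 and 7209 mouse cells and 10185 and 13052 of 10190 and 13292 ferret cells.

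Each cell took 1 class by its count of markers with a UMI: first microglia, vascular, Cajal-Retzius, erythroid or interneuron, then glial IPC, then RG or neuronal IPC, then PyN. Cells over 2 thresholds of the first group, or over both the RG and neuronal IPC thresholds, stayed unassigned, and 77.3% to 86.0% of cells of a library were assigned. The thresholds were set after the marker counts per cell had been seen, without the values of the members. No clustering and no doublet caller was used. The mouse libraries shared 28 barcodes and the ferret sets 38. Cells with at least 3 of 10 cycling markers were called cycling. With 1 library per genotype no test was made. Counts were summed per class with pandas 2.3.3, numpy 2.4.6 and scipy 1.17.1 under python 3.11.15, and the calculation was tested on simulated data. Thinned shares are the expected shares at 2900 UMIs drawn without replacement. A count of 0 was given a limit of 3 counts.

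The members, gene lists and markers were chosen with earlier results of these data known. Named beside the members were pathway genes past 2-fold in RG-like cells with at least 50 UMIs over both libraries (none was), and the 3 genes most like each member with at least 100 UMIs. Coordinates are those of GENCODE for GRCm38. Alternatives changed the cell filter, marker threshold, second-class, deepest, cycling and high immediate early gene cells, scaling, barcode overlap and thinning before classing; the last 2 and the immediate early gene filter were chosen after seeing the data. Some results are not reported here.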

Additional observations from a re-analysis of the deposited data

Results flagged for a closer look

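The Nrg1 ratio of Smo-cKO over control had opposite directions in different classes. It was 0.276 in interneuron-like cells (24 and 7 UMIs), against 1.37 in RG-like, 1.44 in glial IPC-like, 1.54 in neuronal IPC-like and 1.45 in PyN-like cells, with each interval on its own side of 1. Once cells with markers of a second class were left out, 1 and 2 Nrg1 UMIs remained in interneuron-like cells and the ratio was 0.812, and the ratio in glial IPC-like cells was 0.927 when 1 more marker was needed. The Smo-cKO share of interneuron-like cells with an Nrg1 UMI, 2.21%, was below the 2.84% of the deeper microglia-like cells. At 2900 UMIs it was above, 1.42% against 0.678%. With 1 library per genotype the difference between classes was not tested. The share of cycling cells in the interneuron-like class (18.2% in control, 3.31% in Smo-cKO) differed alongside, and without cells of 2 or more cycling markers the interneuron-like ratio was 0.258 (17 and 6 UMIs).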

How the results depend on the processing

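For 23 ratios of the members, 10 alternatives gave 209 values, of which 207 stayed on the same side of 1. The Egfr ratio stayed between 0.166 and 0.249 in RG-like and between 0.223 and 0.355 in neuronal IPC-like cells, the Tgfa ratio between 0.439 and 0.499 in RG-like cells and the Nrg1 ratio between 1.29 and 1.42 there. The exceptions were Nrg1 in glial IPC-like cells, 0.927 with 1 more marker needed, and Tgfa in neuronal IPC-like cells, 0.993, which came to 1.04 without cells of 10 or more immediate early gene UMIs and to 0.668 with classes set on thinned cells. The difference in the share of all cells with an Erbb2 UMI turned to -0.104 percentage points at 2900 UMIs. Without cells of a second class the Egfr ratio in glial IPC-like cells was 0.616. Without the 5% of cells with most UMIs the Egfr ratio over all cells was 0.209 and the Hbegf ratio in glial IPC-like cells 3.05, and without cycling cells the latter was 1.70. The cause of these shifts was not tested. Genes at least 2-fold higher and lower in RG-like cells, 299 and 180 with 50 UMIs needed, were 701 and 436 with 10 needed and 1772 and 1277 with no minimum.

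Differences in share, in percentage points, shrank in most cases with depth made equal or 2 UMIs needed. Egfr gave -3.38 and -1.41 over all cells and -2.79 and -0.797 in RG-like cells, Nrg1 gave 5.12 and 10.50 in RG-like cells, and Tgfa gave -0.0222 in RG-like cells with 2 UMIs needed. At 2900 UMIs Hbegf gave 4.78 in glial IPC-like cells. Some differences grew in size at that depth, such as Erbb4 in interneuron-like cells, from 9.39 to 20.0, and Egfr in glial IPC-like cells, from -14.3 to -14.9. Levels in CPM were higher with stricter classes: Egfr in control glial IPC-like cells was 158 with 1 more marker and 167 without second-class cells, and 103 in Smo-cKO without them; Erbb4 in interneuron-like cells was 229 and 243 in control and 405 in Smo-cKO without second-class cells. In ferret, without second-class cells, EGFR in glial IPC-like cells of set 1 was 368 and ERBB4 in interneuron-like cells 11674 in set 1 and 12905 in set 2 (10314 in set 1 with 1 more marker).

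No paired analysis was possible because each genotype had 1 library, so there were no replicates to pair or to leave out. Low UMI counts limit Erbb3, TGFA and every class under 100 cells.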

Other observations

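Prm1, a gene of sperm chromatin that was looked at after values were seen, had 0 UMIs in the control library and 10859 UMIs in 2333 cells of the Smo-cKO library. It was found in 1437 of the 1599 Smo-cKO RG-like cells, 89.9%. These held 2.32 CPM of Egfr (1.53 to 3.38) and 2.93 CPM of Tgfa (2.03 to 4.09). The 162 RG-like cells of the same library without a Prm1 UMI held 12.6 CPM of Egfr (6.71 to 21.5, 13 UMIs) and 11.6 CPM of Tgfa (6.01 to 20.3, 12 UMIs), beside 14.9 and 7.82 CPM in control. Their median depth was 6460 UMIs against 7465, and 24.1% against 24.3% of them had a glial IPC marker. Smo had 2 UMIs in each of these parts, which differ in size. That was 0.172 CPM (0.0209 to 0.622) in the cells with Prm1 and 1.94 CPM (0.235 to 7.002) in those without. These Smo intervals overlapped, and both lay below the 14.9 CPM of Smo in control RG-like cells. In glial IPC-like cells the split did not go the same way: Egfr was at 60.9 CPM (48.9 to 75.0) in 121 cells with Prm1 and at 40.9 CPM (23.9 to 65.6) in 38 cells without.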
